A study of Mus musculus with 6 samples.

Results

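The genes that bring fatty acids from blood into lung cells and carry them inside the cell were compared between untreated wild-type (WT) mice and mice with a knockout of the secreted protein isthmin 1 (ISM1-KO, written ISM1-/- in the study). The group held 9 genes, chosen by symbol for their known function and with earlier results of these data known. It comprised the fatty acid-binding proteins *Fabp1*, *Fabp3*, *Fabp4* and *Fabp5*, the surface receptor *Cd36*, the capillary anchor *Gpihbp1*, and the fatty acid transport proteins *Slc27a1*, *Slc27a3* and *Slc27a4*. The study had already listed *Fabp4* as lower in these same data, so counts over the 9 are not an independent result. Each symbol matched 1 of the 54532 genes of the deposited count table, and all 9 were among the 18689 genes tested, those that reached 0.5 CPM (read counts scaled by the library total) in at least 1 library. RNA came from perfused whole lungs of C57BL/6J mice at 2 months of age, with 3 WT and 3 ISM1-KO libraries and 1 library per mouse. WT animals were bought from a supplier while ISM1-KO animals were bred in-house on the same strain, so the effect of the genotype and that of the animals' origin cannot be told apart.

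Long-chain fatty acids reach the lung mostly as triglyceride in lipoproteins or bound to albumin. On the capillary surface the endothelial protein GPIHBP1 holds lipoprotein lipase, which frees fatty acids from lipoproteins, and CD36 and the SLC27 proteins then move them across membranes or trap them as acyl-CoA. FABPs are small proteins that hold a fatty acid in the cytosol, and their isoforms are known from different cells, with FABP1 abundant in liver, FABP3 in heart and other muscle, FABP4 in adipocytes, some endothelium and macrophages, and FABP5 in epidermis, endothelium and macrophages. Whole lung mixes all of these sources, and in bulk tissue fewer cells of a type and less RNA per cell cannot be told apart.

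The libraries held between 37606133 and 42345042 counts in total (median 39101437). Values below are CPM after TMM scaling, unless another unit is named, and log2 fold changes are ISM1-KO over WT. The test was the quasi-likelihood test of edgeR, and its p-values were adjusted by Benjamini-Hochberg over all genes tested. A gene was called at an adjusted p under 0.1. *Ism1* itself (ENSMUSG00000074766) was counted 3098, 3215 and 2975 times in WT and 2784, 2508 and 2953 times in the libraries labelled ISM1-KO, so its transcript was still counted there and the genotype rests on the label. Among all genes tested the median log2 fold change was 0.0043.

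*Fabp4* and *Slc27a1* were lower in the ISM1-KO lungs, and the other 7 genes were not called. Thus 2 of 9 genes were called lower, beside 3.34% of all genes tested, and 0 of 9 were called higher, beside 1.38%. No gene of the 9 was higher at an unadjusted p under 0.05 in edgeR, and DESeq2 called none higher either. With a 2-fold minimum added, 1 of 9 remained, *Fabp4*, beside 0.284% of all genes tested. The same 2 of 9 genes were those whose 3 ISM1-KO libraries did not overlap the 3 WT libraries. This share is close to the 21.6% of all genes tested that showed no overlap, so it does not set the group apart. Over the 9 genes the median log2 fold change was -0.03, close to the median of all genes.

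**Figure D1:**
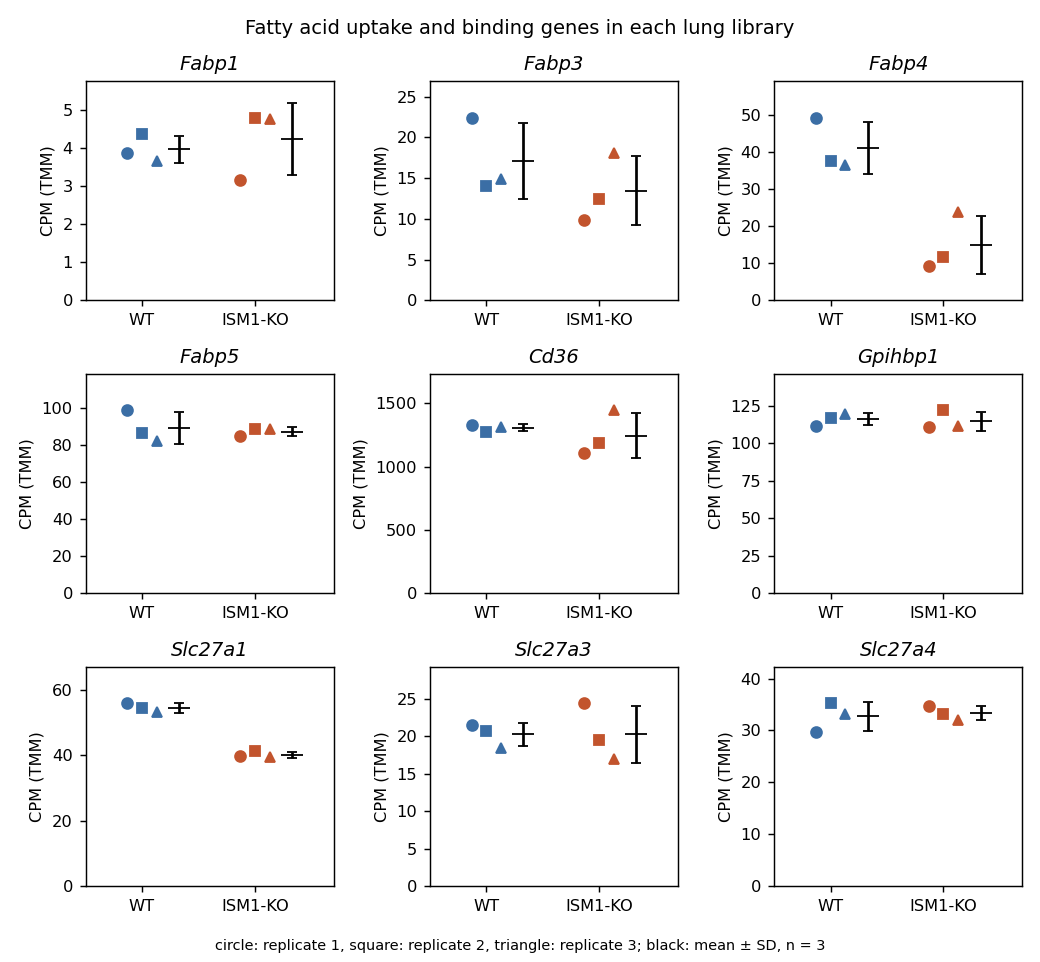
CPM after TMM scaling (y axis, from 0) of the 9 genes in the 3 WT and 3 ISM1-KO libraries, with the mean ± SD of each group in black. The WT and ISM1-KO points are separate for *Fabp4* and *Slc27a1* and overlap for the other 7 genes.

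*Fabp4* (ENSMUSG00000062515, GRCm38 chromosome 3, 10204088 to 10208576, reverse strand), the FABP of adipocytes, showed the largest change of the 9. Its reads numbered 1857, 1564 and 1408 in WT against 395, 446 and 927 in ISM1-KO. Scaled to the libraries, this was 49.2, 37.7 and 36.4 CPM in WT and 9.28, 11.7 and 23.7 CPM in ISM1-KO. Every ISM1-KO library lay below every WT library, and ISM1-KO replicate 3 stood nearest to WT, above the other ISM1-KO libraries. The WT mean was 41.1 ± 7.07 CPM (SD, n = 3), and the ISM1-KO mean of 14.9 ± 7.73 CPM (SD, n = 3) was 36.3% of it. On the log2 scale *Fabp4* fell by 1.46 (standard error 0.283, 95% confidence interval of the fold change -2.10 to -0.83, edgeR adjusted p = 0.0327). An exact two-sided permutation test over the 20 assignments of the 6 libraries gave p = 0.1, the smallest that 3 libraries against 3 allow. Leaving out WT replicate 2 raised the edgeR adjusted p to 0.107 and leaving out ISM1-KO replicate 2 raised it to 0.132, at log2 fold changes of -1.52 and -1.32. Over all omissions of 1 library the log2 fold change lay between -1.97 and -1.21.

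The reads of *Fabp4* can be told from those of *Fabp1*, *Fabp3* and *Fabp5* by sequence. FABP genes outside the 9 were not compared. The coding sequence of *Fabp4*, 396 bases long in the transcript Fabp4-201, was 67.2% identical to that of *Fabp3*, 62.8% to that of *Fabp5* and 56.9% to that of *Fabp1*. No run of more than 16 bases was shared between the annotated transcripts of *Fabp4* and *Fabp5*, and none of more than 14 between those of *Fabp4* and *Fabp3*. The stretch below is the part of the coding sequence that lies between the primers the study designed for *Fabp4*, and it is shown because it is specific to this gene among the 9. It spans 171 bases from exon 2 to exon 4 of 4 (GRCm38 chr3:10204535-10205982, reverse strand, introns left out), read from the GENCODE M21 transcript. Capitals mark the primer sites, and neither site occurs in a transcript of the other 8 genes.
Fabp4-201: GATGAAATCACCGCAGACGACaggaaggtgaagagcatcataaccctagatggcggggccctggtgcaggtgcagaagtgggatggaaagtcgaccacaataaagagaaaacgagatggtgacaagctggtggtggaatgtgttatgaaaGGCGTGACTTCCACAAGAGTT

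*Fabp4* lies in a cluster of FABP genes on chromosome 3, and of its neighbours *Fabp12* and *Fabp5* were tested and not called. *Pmp2* and *Fabp9* did not pass the filter on counts and were not tested. *Pmp2*, the FABP of myelin, had 0 counts in all 6 libraries, and *Fabp9*, known from testis, had 1 count in 1 WT library. *Fabp12*, on the reverse strand like *Fabp4*, has its lowest coordinate 40.1 kb above that of *Fabp4*. It was counted 162, 134 and 136 times in WT and 121, 115 and 153 times in ISM1-KO (log2 fold change -0.17, adjusted p = 0.710 from edgeR). *Fabp5*, on the other side of *Fabp4*, was not called either.

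*Fabp5* (ENSMUSG00000027533, chromosome 3, 10012548 to 10016607, forward strand) was the most abundant FABP. It stood at 98.9, 86.6 and 82.4 CPM in WT and 84.9, 88.7 and 88.9 CPM in ISM1-KO, so all ISM1-KO libraries lay within the WT range. The log2 fold change was -0.03 with a 95% confidence interval of -0.19 to 0.13 (adjusted p = 0.898 from edgeR), an interval that does not reach the change of *Fabp4*.

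*Fabp3* (ENSMUSG00000028773, chromosome 4, 130308595 to 130315463, forward strand), the FABP of heart and muscle, varied widely within each genotype. Its levels were 22.4, 14.0 and 14.9 CPM in WT and 9.89, 12.4 and 18.1 CPM in ISM1-KO. WT replicate 1 was the highest of all, ISM1-KO replicate 1 the lowest, and ISM1-KO replicate 3 exceeded 2 of the 3 WT libraries. The WT mean was 17.1 ± 4.62 CPM (SD, n = 3) and the ISM1-KO mean 13.5 ± 4.22 CPM (SD, n = 3). The log2 fold change of -0.35 had a 95% confidence interval of -0.85 to 0.16 (adjusted p = 0.515 from edgeR), and without WT replicate 1 it was -0.10. The gene shares 81 bases of its span with *Zcchc17* and 80 bases with *Gm10570*, both on the opposite strand. Whether the counting used the strand is not given in the sources used here, so reads in these bases are uncertain.

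*Fabp1* (ENSMUSG00000054422, chromosome 6, 71199827 to 71205023, forward strand), the FABP of liver, was the least abundant of the 9 by CPM. It was counted 146, 181 and 141 times in WT and 134, 182 and 186 times in ISM1-KO, with ISM1-KO libraries both below and above the WT range. WT averaged 3.96 ± 0.365 CPM (SD, n = 3) and ISM1-KO 4.23 ± 0.941 CPM (SD, n = 3) (log2 fold change 0.09, 95% confidence interval -0.31 to 0.50, adjusted p = 0.865 from edgeR).

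*Cd36* (ENSMUSG00000002944, chromosome 5, 17781690 to 17888801, reverse strand), the scavenger receptor that binds long-chain fatty acids on endothelium, macrophages and adipocytes, was by far the most abundant of the 9. Its levels were 1328, 1274 and 1317 CPM in WT and 1109, 1184 and 1444 CPM in ISM1-KO. The WT libraries agreed closely, at 1306 ± 28.7 CPM (SD, n = 3), whereas ISM1-KO replicates 1 and 2 lay below all of them and ISM1-KO replicate 3 above all of them, at a mean of 1246 ± 176 CPM (SD, n = 3). Between genotypes its log2 fold change was -0.07 (95% confidence interval -0.27 to 0.14, adjusted p = 0.790 from edgeR). Without ISM1-KO replicate 3 it was -0.19 and the edgeR adjusted p was 0.0981, while without ISM1-KO replicate 1 it was 0.01.

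*Gpihbp1* (ENSMUSG00000022579, chromosome 15, 75596628 to 75599481, forward strand), which carries lipoprotein lipase to the lumen of capillaries, varied least of the 9 over the 6 libraries. It stood at 111.7, 116.6 and 119.5 CPM in WT and 110.7, 121.8 and 111.1 CPM in ISM1-KO, and the groups overlapped. With a log2 fold change of -0.02 it had the narrowest interval among the genes that were not called (95% confidence interval -0.15 to 0.12, adjusted p = 0.932 from edgeR).

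*Slc27a1* (ENSMUSG00000031808, chromosome 8, 71568882 to 71587302, forward strand) encodes FATP1, a transporter and acyl-CoA synthetase of muscle and fat whose movement to the cell surface responds to insulin. Its reads numbered 2110, 2257 and 2056 in WT and 1693, 1563 and 1546 in ISM1-KO. This equals 55.9, 54.3 and 53.1 CPM in WT and 39.8, 41.2 and 39.6 CPM in ISM1-KO. The 3 libraries of each genotype lay close together, and the gap between the genotypes was much wider than the spread within either. Means were 54.5 ± 1.40 CPM (SD, n = 3) and 40.2 ± 0.855 CPM (SD, n = 3), so ISM1-KO stood at 73.8% of WT. *Slc27a1* fell by 0.44 on the log2 scale (standard error 0.0590, 95% confidence interval of the fold change -0.57 to -0.31, edgeR adjusted p = 0.0116), and the exact permutation test gave p = 0.1, its smallest possible value. The adjusted p stayed under 0.1 in all 14 alternative fits, where the log2 fold change ranged from -0.46 to -0.42.

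The other SLC27 members of the group were not called. *Slc27a3* (ENSMUSG00000027932, chromosome 3, 90385239 to 90389938, reverse strand), an acyl-CoA synthetase of intracellular membranes, was at 21.5, 20.7 and 18.5 CPM in WT and 24.4, 19.5 and 16.9 CPM in ISM1-KO. ISM1-KO replicate 1 was the highest library and ISM1-KO replicate 3 the lowest. Its log2 fold change was 0.00 with a 95% confidence interval of -0.28 to 0.28 (adjusted p = 0.994 from edgeR). *Slc27a4* (ENSMUSG00000059316, chromosome 2, 29802634 to 29817522, forward strand), which encodes FATP4 of skin and gut, was at 29.8, 35.2 and 33.1 CPM in WT and 34.8, 33.2 and 32.1 CPM in ISM1-KO. All ISM1-KO libraries lay within the WT range, at a log2 fold change of 0.03 (95% confidence interval -0.14 to 0.20, adjusted p = 0.909 from edgeR). *Slc27a1* and *Slc27a4* are 68.2% identical over their coding sequences and share no run longer than 26 bases.

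**Figure D2:**
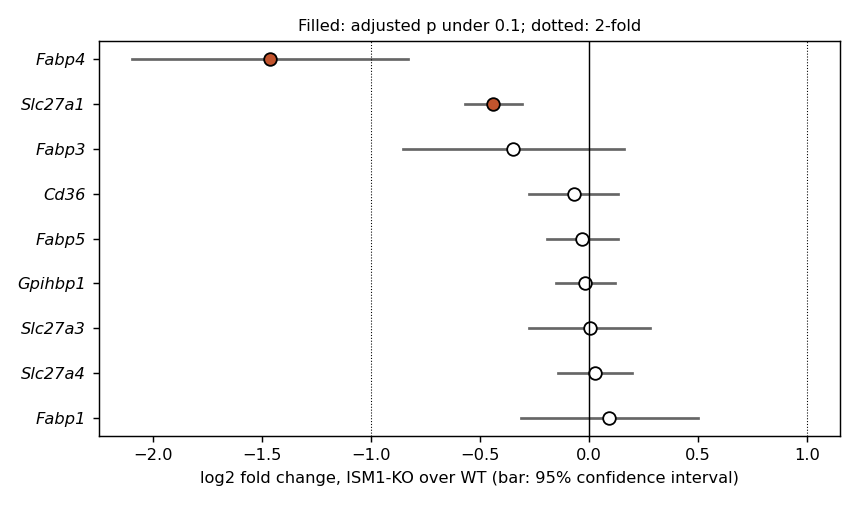
Log2 fold change of each of the 9 genes, ISM1-KO over WT (x axis), with its 95% confidence interval as a bar; filled points have an adjusted p under 0.1 and dotted lines mark a 2-fold change. *Fabp4* at -1.46 and *Slc27a1* at -0.44 have intervals that exclude 0, and the other 7 intervals include it.

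The ratio of *Fabp4* to each other gene within a library does not depend on how libraries are scaled, and it was used to describe how *Fabp4* changed beside the other 8. The log2 ratio of *Fabp4* to *Fabp5* was -1.01, -1.20 and -1.18 in WT and -3.19, -2.92 and -1.91 in ISM1-KO. Against *Slc27a1*, the other gene called lower, it was -0.18, -0.53 and -0.55 in WT and -2.10, -1.81 and -0.74 in ISM1-KO. The ratio of *Fabp4* to *Fabp3* came to 1.13, 1.42 and 1.29 in WT and -0.09, -0.08 and 0.39 in ISM1-KO, so *Fabp4* had more counts than *Fabp3* in WT and about as many in 2 of the 3 ISM1-KO libraries. In each of the 8 ratios every ISM1-KO library lay below every WT library. The differences between genotypes ranged from -1.64 against *Fabp1* to -1.13 against *Slc27a1*, on the log2 scale. Each exact two-sided permutation test gave p = 0.1 (0.1 after Benjamini-Hochberg adjustment over the 8 ratios), which is the smallest value the design allows. All 8 ratios share the *Fabp4* counts and are not independent of each other. *Fabp4* was already known to be lower, and the direction of the ratios follows from the fold changes given above, so they add no separate evidence.

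Levels of different genes were compared per length, in the deposited FPKM, in which counts are divided by the library total and by a transcript length. In WT the order ran from *Cd36* at 522 ± 12.2 FPKM (SD, n = 3) through *Gpihbp1* at 124 ± 4.22, *Fabp5* at 42.4 ± 4.08, *Slc27a1* at 30.9 ± 0.798, *Fabp3* at 20.9 ± 5.65, *Fabp4* at 16.1 ± 2.78, *Slc27a4* at 13.7 ± 1.14 and *Slc27a3* at 12.8 ± 0.987 to *Fabp1* at 7.17 ± 0.651. Neighbours in this order were separate in every WT library except for *Fabp3* with *Fabp4*, *Fabp4* with *Slc27a4* and *Slc27a4* with *Slc27a3*, whose libraries overlapped. In ISM1-KO *Fabp4* was last, at 5.78 ± 2.93 FPKM (SD, n = 3), and its libraries overlapped those of *Fabp1* at 7.63 ± 1.65.

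The place of *Fabp4* in that order depended on the length it was divided by. The length behind the deposited FPKM equalled the mean length of all annotated transcripts in 96.8% of 31908 genes. For *Fabp4* that was 2563 bases, since a retained-intron transcript of 4231 bases is averaged with the coding transcript of 896 bases. Rescaled to the longest coding transcript, a choice made after seeing the data, *Fabp4* stood at 46.0 ± 7.94 FPKM (SD, n = 3) in WT and 16.5 ± 8.38 FPKM (SD, n = 3) in ISM1-KO. It then ranked 4 of 9 in WT in place of 6, and *Fabp5*, at 90.8 ± 8.74, ranked above *Gpihbp1*, at 70.4 ± 2.39. The length is the same in all libraries, so the comparison between genotypes did not change with it.

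**Figure D3:**
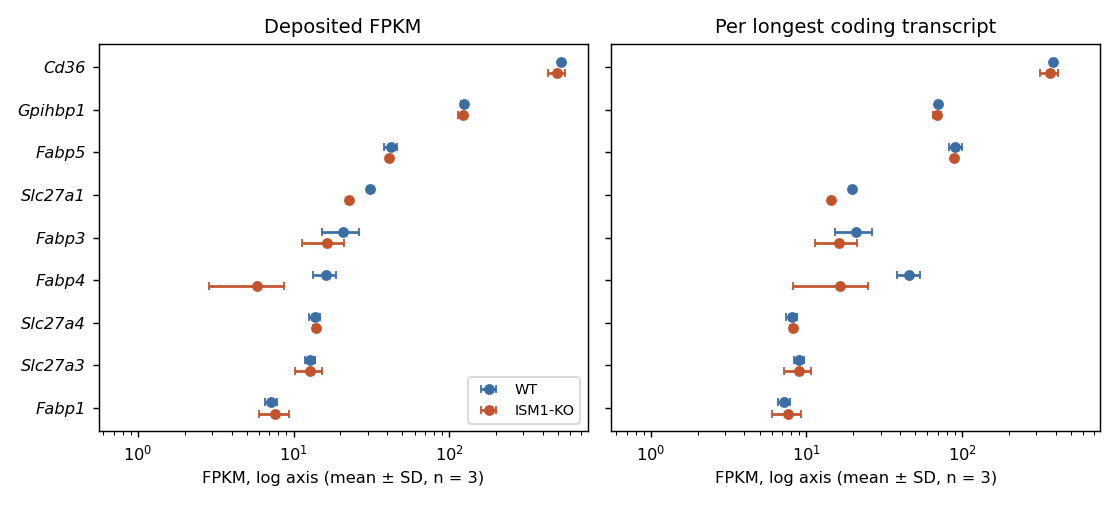
Level per length of the 9 genes on a log axis (FPKM, mean ± SD, n = 3 per genotype), as deposited on the left and rescaled to the longest coding transcript on the right. *Cd36* is highest and *Fabp1* lowest in WT in both panels, and *Fabp4* in WT moves from 16.1 to 46.0 FPKM.

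Genes around the 9 in the pathway were described by lists, each read beside the shares of all genes given above. Of the other intracellular lipid-binding proteins 5 of 11 were tested. *Crabp1*, which binds retinoic acid, was higher, at 29, 30 and 26 counts in the WT lungs against 95, 73 and 43 in ISM1-KO (log2 fold change 1.28, adjusted p = 0.0534 from edgeR). Omitting 1 library ended the call of *Crabp1* in 4 of 6 fits, all but those without WT replicate 1 or ISM1-KO replicate 3. The other SLC27 transporters tested, *Slc27a2* and *Slc27a6*, were at -0.02 and 0.08, and neither had an unadjusted p under 0.05 or was called by DESeq2.

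The lipase that GPIHBP1 carries was not called. *Lpl*, which encodes lipoprotein lipase, was counted 10101, 8665 and 8276 times in WT and 6449, 7012 and 8509 times in ISM1-KO, with ISM1-KO replicate 3 inside the WT range (log2 fold change -0.32, standard error 0.131, adjusted p = 0.271 from edgeR). Of the 12 genes of the lipoprotein lipase axis that were tested, edgeR and DESeq2 called 0, while 2 were lower at an unadjusted p under 0.05. Their median log2 fold change was -0.01, and *Apoe*, the apolipoprotein with the highest level per length of the list, was at 0.05. Without ISM1-KO replicate 3, 2 genes of this list were called lower.

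Of the lipoprotein and scavenger receptors, the abundant *Lrp1* and *Scarb2* were at log2 fold changes of -0.20 and 0.06 and were not called. Of 20 genes that control fatty acid uptake in endothelium, *Ppara*, a nuclear receptor that binds fatty acids, was called, at 201, 206 and 189 counts in the WT lungs against 158, 105 and 139 in ISM1-KO (log2 fold change -0.59, adjusted p = 0.0731 from edgeR). The caveolar genes *Cav1* and *Cavin1*, the most abundant of that list, were at 0.15 and 0.05. Omitting 1 library ended the *Ppara* call in 5 of 6 fits, all but that without ISM1-KO replicate 3.

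Genes that act on the fatty acid once inside gave 4 calls, all of them lower. Of 15 acyl-CoA synthetase and acyl-CoA binding genes tested, 3 were lower and 0 higher, with 0 higher at an unadjusted p under 0.05 and 0 by DESeq2, and the median log2 fold change was -0.10. *Acsl1*, the long-chain acyl-CoA synthetase of fat and heart, fell by 0.34 on the log2 scale (adjusted p = 0.0784 from edgeR), from 3242, 3452 and 2985 counts in WT to 2466, 2420 and 2850 in ISM1-KO. The acetate-activating enzymes *Acss1* and *Acss2* fell by 0.29 and 0.34 (adjusted p = 0.0383 and 0.0484 from edgeR). The most abundant genes of the list, *Acsl5* and the acyl-CoA binding protein *Dbi*, were at 0.06 and -0.20 and were not called. Of 20 genes of mitochondrial fatty acid entry and oxidation, 1 was lower, *Echs1*, which encodes an enoyl-CoA hydratase (log2 fold change -0.25, adjusted p = 0.0706 from edgeR), and the median was -0.09. *Acadm* and *Hadha*, the most abundant of these, were at -0.17 and 0.00. The acyl-CoA list varied with the library left out, from 0 to 5 genes lower, with 5 when ISM1-KO replicate 3 was omitted and 1 without WT replicate 1, and the oxidation list from 0 to 2.

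Because FABP isoforms differ in their cell of origin, the levels of marker genes were set beside them, with the 9 genes left out of each marker sum. Adipocyte markers were lower in ISM1-KO. All 14 were tested, 10 were called lower and 0 higher, with 0 higher at an unadjusted p under 0.05 and 0 by DESeq2, and the median log2 fold change was -1.22. The call held for *Adipoq*, *Plin1*, *Cfd*, *Lep*, *Retn*, *Pck1*, *Plin4*, *Lgals12*, *Adig* and *Cidec*. Of these, the study had already named *Adipoq*, *Plin1*, *Plin4* and *Pck1* as lower in these same data, among the genes of its enriched pathways. The study's full list of changed genes, made from the same counts, may hold other markers called here. None of these calls is therefore independent of the study's own result. *Cfd*, the secreted protease adipsin, was counted 3875, 3636 and 4725 times in WT and 549, 654 and 1667 times in ISM1-KO (log2 fold change -2.10, adjusted p = 0.0222 from edgeR). The more abundant *Lpl*, *Pnpla2* and *Lipe*, which lung cells other than adipocytes also express, were at -0.32, -0.20 and -0.07 and were not called. With each library left out the list gave from 4 to 12 genes lower, 4 without ISM1-KO replicate 1 or 2, 5 without WT replicate 2 or 3, and 12 without ISM1-KO replicate 3, and *Cfd*, *Plin1* and *Cidec* were called in all 6 of these fits. The summed level of the list was 691, 595 and 646 CPM in WT and 372, 435 and 514 CPM in ISM1-KO, for replicates 1 to 3. Within ISM1-KO the sum and *Fabp4* had the same order of libraries. Within WT both were highest in replicate 1, but the sum was lowest in replicate 2 and *Fabp4* in replicate 3. *Lpl*, which was not called, made up 152, 185 and 218 CPM of the ISM1-KO sum. For *Adipoq*, the study's staining placed lung adiponectin in alveolar type 2 cells. The study also saw no significant change of adiponectin in adipose tissues of ISM1-KO mice. The part of adipocyte RNA in the lower *Fabp4* was not tested.

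Heart and brown fat markers were highest in WT replicate 1. The summed level of the 16 cardiomyocyte markers was 1941, 669 and 789 CPM in WT and 375, 516 and 719 CPM in ISM1-KO, and that of the 6 brown adipocyte markers tested was 36.9, 17.2 and 20.9 CPM against 13.5, 15.6 and 19.8 CPM. WT replicate 1 stood above all other libraries in both, as it did for *Fabp3*, and ISM1-KO replicate 1 was the lowest in all 3. The same libraries were the highest and the lowest for *Fabp4* and the adipocyte sum, so this pattern is not particular to *Fabp3*. *Ucp1*, which defines brown fat, was counted 232, 2 and 24 times in WT and 5, 4 and 3 times in ISM1-KO and was not called (adjusted p = 0.139 from edgeR). Among cardiomyocyte markers 1 of 16 was called lower, *Myl7*, at a log2 fold change of -1.11 (adjusted p = 0.0970 from edgeR), 13 were lower at an unadjusted p under 0.05, and DESeq2 called 0. *Myh6*, the alpha myosin heavy chain of the heart and the most abundant of them, was counted 26527, 9624 and 10611 times in WT and 5197, 6705 and 9905 times in ISM1-KO. Skeletal muscle markers, of which 6 of 10 were tested, gave 1 call, *Tnnt3*, at -0.81 (adjusted p = 0.0710 from edgeR), and brown adipocyte markers gave 1, *Cox8b*, at -1.13 (adjusted p = 0.0538 from edgeR). Omitting 1 library ended the calls of *Myl7* and *Tnnt3* in 5 of 6 fits, all but that without ISM1-KO replicate 3, and that of *Cox8b* in 4 of 6. Without ISM1-KO replicate 3, 5 cardiomyocyte markers were called lower, and without WT replicate 1 none was. The part of heart RNA in the spread of *Fabp3* was not tested.

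Markers of the cells that hold *Cd36* and *Gpihbp1* in lung gave no endothelial call in edgeR. Pan-endothelial markers summed to 4335 to 4622 CPM in WT and 4677 to 4921 CPM in ISM1-KO, with every ISM1-KO library above every WT library. None of the 10 was called, 4 were higher at an unadjusted p under 0.05, and DESeq2 called 1 higher. *Cdh5* and *Pecam1*, adhesion proteins of endothelial junctions, were at 0.13 and 0.14. The 5 general capillary markers summed to 3072 to 3292 CPM in WT and 3083 to 3320 CPM in ISM1-KO, and the 6 aerocyte markers to 804 to 896 CPM and 858 to 924 CPM. Neither list had a call in edgeR or DESeq2, and the only unadjusted p under 0.05 was that of *Plvap*, at -0.25. Alveolar macrophage markers summed to 798 to 884 CPM in WT and 731 to 842 CPM in ISM1-KO. This sum shares *Car4* with the aerocyte sum, so it is not of macrophages alone. Of the 12 macrophage markers 1 was called, *Cidec*, a lipid-droplet protein that is in the adipocyte list too. *Chil3*, the most abundant macrophage marker, was at -0.15.

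Other cell types gave calls in 4 lists. Of 9 airway epithelial markers 6 were lower, and their sum was 23998 to 25826 CPM in WT and 15661 to 19665 CPM in ISM1-KO, with *Scgb1a1*, the club cell secretoglobin, at a log2 fold change of -0.51 (adjusted p = 0.0270 from edgeR, not called without WT replicate 2 or ISM1-KO replicate 2). Leaving out 1 library gave from 1 (without WT replicate 2) to 6 airway genes lower, with 2 without ISM1-KO replicate 2 and 3 without ISM1-KO replicate 1. Among squamous epithelial markers 2 of the 4 tested were lower, *Krt1* and *Sprr1a*, both at -1.41, and leaving out 1 library left 0 or 1. Fibroblast markers gave 2 lower of 10, *Col1a1* and *Pi16*, while the most abundant, *Inmt*, *Npnt* and *Col3a1*, were not called. *Rtkn2* was the 1 alveolar type 1 marker of 8 that was called, and it was higher, with the call lost in 4 of 6 fits that each omitted 1 library. Alveolar type 2, interstitial macrophage and hepatocyte markers gave no call in edgeR, with 2, 0 and 0 genes at an unadjusted p under 0.05 and 1, 0 and 0 called by DESeq2. Of 6 hepatocyte markers 2 were tested, and they summed to 13.8 to 17.7 CPM in WT and 7.05 to 16.7 CPM in ISM1-KO. Their median log2 fold change was -0.38. *Ttr*, which defines hepatocytes with others of its list, had 0 counts in all 6 libraries. *Sftpc*, the surfactant protein that defines type 2 cells, was at -0.01. The part of these cells in the lower *Slc27a1* was not tested.

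**Figure D4:**
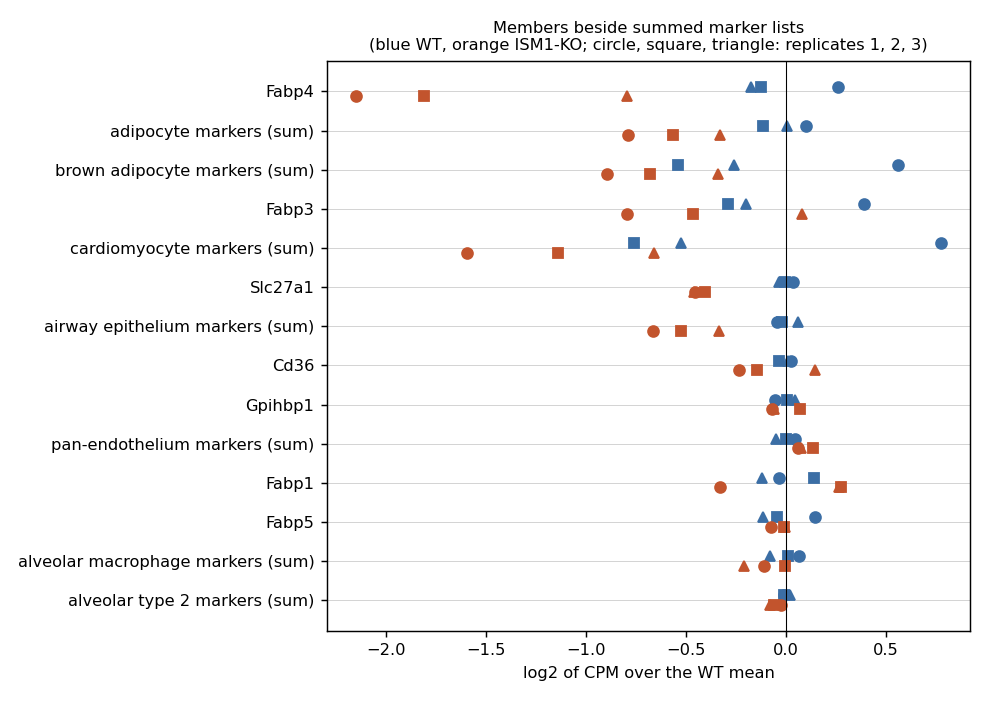
Log2 of CPM over the WT mean (x axis) of 7 of the genes and of 7 summed marker lists in each library, WT in blue and ISM1-KO in orange, with circle, square and triangle for replicates 1, 2 and 3. *Fabp4*, *Slc27a1* and the adipocyte and airway epithelium sums are lower in every ISM1-KO library than in any WT library. The alveolar type 2 sum is too, by a small margin. *Fabp3*, the cardiomyocyte sum, *Fabp4* and the adipocyte sum are all highest in WT replicate 1. *Gpihbp1*, *Fabp5* and the alveolar type 2 sum stay near 0.

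For each of the 9 genes the 3 genes with the most similar profile over the 6 libraries were found, as the smallest root mean square distance between centred log2 CPM over 15876 genes that averaged 1 CPM or more. Nearest to *Fabp4* were *Retn*, which encodes resistin, *Plin1*, which encodes perilipin of lipid droplets, and *Adipoq*, which encodes adiponectin, all from the adipocyte list. They lay at distances of 0.203, 0.226 and 0.263, beside a spread of 0.894 of *Fabp4* about its own mean. *Plin1* was counted 692, 519 and 505 times in WT and 119, 108 and 245 times in ISM1-KO, with the highest WT value in replicate 1 and the highest ISM1-KO value in replicate 3 like *Fabp4*. Nearest to *Fabp3* were *Myom1*, which encodes a protein of the sarcomere, *3425401B19Rik* and *Chrm2*, the muscarinic receptor of the heart, at 0.0601, 0.0883 and 0.0980 beside a spread of 0.378. *Myom1* was counted 1509, 1109 and 1019 times in WT and 760, 780 and 1229 times in ISM1-KO, and was not called.

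The profile of *Slc27a1* was matched by other genes than that of *Fabp4*. *Igsf3*, *Cux2* and *Slc25a13*, a mitochondrial aspartate-glutamate carrier, lay at 0.0184, 0.0207 and 0.0230, beside a spread of 0.221, and all 3 were lower in ISM1-KO at log2 fold changes of -0.42, -0.47 and -0.41 (adjusted p = 0.0163 and 0.0293 from edgeR for the first pair, and under 0.1 for the third). The *Igsf3* call held with each library left out, whereas that of *Cux2* was lost without WT replicate 2 or ISM1-KO replicate 1 and that of *Slc25a13* in 5 of 6 fits, all but that without ISM1-KO replicate 3. *Slc16a7*, a monocarboxylate transporter, *Atp8a1* and *Eri2* were nearest to *Cd36*, *Gas7*, *Toe1* and *Camk2n1* to *Fabp5*, and *Cachd1*, *Lgmn* and *Aar2* to *Gpihbp1*. For *Fabp1* they were *2500002B13Rik*, *Gm47694* and *Stc2*, for *Slc27a3* *Oaz1-ps*, *Dennd4b* and *Gm45890*, and for *Slc27a4* *Atg16l1*, *Smyd4* and *Man1b1*. None of these 18 genes was called. With 6 libraries and this many genes, near profiles are a description only.

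Promoters were searched for the direct repeat of AGGTCA with 1 base between its copies, the element that PPAR nuclear receptors are known to bind at several genes of fatty acid uptake. RefSeq windows on GRCm38.p6, from 250 bases before to 50 after a gene's start, were held for 6 of the 9 genes, in 8 windows, and not for *Fabp4*, *Fabp5* and *Gpihbp1*. With up to 2 mismatches and on both strands, 3.86% of all 32817 windows held the repeat. Of the genes searched, *Fabp1* and *Cd36* held it, each on the reverse strand of its promoter, with 1 and 2 mismatches. The matches are shown with the 40 bases before them, on the strand of the gene, with capitals for the 13 bases of the match. The match begins 67 and 63 bases before the RefSeq start of the window, which for neither gene is the gene start given above. The stretches shown lie at chr6:71199772-71199824 for *Fabp1*, on the forward strand, and at chr5:17835947-17835999 for *Cd36*, on the reverse strand. That of *Cd36* is within the span of the *Cd36* gene and outside annotated exons.
Fabp1: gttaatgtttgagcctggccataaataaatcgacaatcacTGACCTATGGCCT
Cd36: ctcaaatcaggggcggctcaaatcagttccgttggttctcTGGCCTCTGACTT
Neither of these genes was called between the genotypes. No match was found in the windows of *Fabp3*, *Slc27a1*, *Slc27a3* and *Slc27a4*, and this says only that these letters are absent from those windows.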

How the data were processed

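RNA of perfused lungs from 3 WT and 3 ISM1-KO mice was sequenced in read pairs from strand-specific libraries of poly-A RNA. The authors mapped the reads to GRCm38 with STAR and deposited raw counts per gene and FPKM values. The counting program, annotation release and strand setting are not given in the sources used here. edgeR 4.0.16 in R 4.3.3 was run on the counts (TMM, glmQLFit, glmQLFTest) after a filter of at least 0.5 CPM in at least 1 library. Each library is 1 mouse, and a chi-square test of counts found all pairs of libraries of a genotype to differ beyond sampling noise. Members and lists were chosen with earlier results of these data known. Genes named are the 9 members, *Ism1*, called genes and the 2 most abundant per length of each pathway list, up to 3 of highest CPM and any called with at least a 2-fold change of each marker list, and the 3 nearest profiles. Other genes named, including all called markers, the chromosome 3 neighbours and *Zcchc17* and *Gm10570*, were chosen after their values were seen. Alternatives were DESeq2 1.42.0, limma 3.58.1 on log2(FPKM + 1), other scalings, filters and thresholds, a replicate block and the omission of each library, which for the list counts was chosen after seeing the data. The edgeR script was tested on simulated counts. Samples with equal replicate numbers were not treated as pairs in the main fit. Coordinates and transcripts are of GENCODE M21 and promoters of RefSeq. Of the listed pathway genes 2 are not reported here.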

Additional observations from a re-analysis of the deposited data

How the results depend on the processing

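The call of *Slc27a1* and the direction of *Fabp4* were the same in all 14 alternative fits, and *Fabp4* kept its call in 12 of them. Called genes among the 9 numbered 1 to 3 with each library left out, 1 without WT replicate 2 or ISM1-KO replicate 2 and 3, with *Cd36* added, without ISM1-KO replicate 3, and 1 with a 2-fold minimum. Over all genes, 106 were called with at least a 2-fold change. This became 293 with no filter, 29 when only protein-coding genes averaging over 2 CPM were tested, 30 with limma on FPKM, 51 at an adjusted p under 0.05, 882 with no fold minimum, and 31 (without ISM1-KO replicate 1) to 188 (without ISM1-KO replicate 3) with each library left out. The cause was not tested.

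Genes with changes near 0 turned sign, and none of them was called after turning. The log2 fold change of *Slc27a3* was -0.0026 with library totals, -0.0027 with no filter, -0.0165 with limma on FPKM, -0.0088 with the replicate block, and -0.15 to 0.12 with each library left out. The ranges with each library left out were -0.0023 to 0.27 for *Fabp1*, -0.084 to 0.052 for *Fabp5*, -0.19 to 0.011 for *Cd36*, -0.063 to 0.0089 for *Gpihbp1* and -0.033 to 0.086 for *Slc27a4*. The replicate numbers gave correlations of -0.0275, 0.0341 and 0.0622 between same-numbered libraries over 15876 genes. The labels give no link between these samples beyond the number, and such correlations cannot exclude one. With the replicate block *Fabp4* was at -1.55, and 130 genes over all were called with at least a 2-fold change. Per length of the longest coding transcript, which was added after seeing the data, *Fabp4* ranked 4 in WT in place of 6. The change of *Fabp3*, -0.35 with a standard error of 0.226, was not detectable at the spread between its libraries.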
